A study of Mus musculus with 12 samples.

Results

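Immediate-early genes, 10 in number, were followed across 12 mouse hearts: Fos, Fosb, Fosl2, Jun, Junb, Jund, Egr1, Atf3, Nr4a1 and Arc. They were picked by symbol, 10 of 53465 genes in the table, and all 10 passed the filter on low counts that left 16101 genes for testing. The set was chosen by measured values of these same libraries, because immediate-early genes as a list had shown a doxorubicin response that differed between the genotypes. The levels and changes of the members are therefore a description. Where members past a threshold are counted, the share of all tested genes past it stands beside the count, and neither is taken as a test of the set or of its direction.

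The hearts came from male mice, 8 weeks of age at the first injection, on a C57BL/6J background. The samples are labelled heart. The paper's results call them left ventricular, while its methods speak of myocardial tissue. A17fl/fl mice carry 2 floxed copies of Adam17, the gene of a membrane sheddase. A17α-MHCKO mice are their littermates with the same floxed copies plus a Cre recombinase driven by the α-MHC promoter, so that the deletion is aimed at cardiomyocytes and other heart cells keep the gene. Doxorubicin, an anthracycline used against tumors that is toxic to the heart, was injected intraperitoneally at 5 mg/kg on days 0, 7, 14 and 21, 20 mg/kg in all. The other mice received the same volume of saline (NS). By the methods, the mice were killed 4 weeks after their final injection, so the values are not those of an acute response to a dose. Each genotype had a saline and a doxorubicin group, written as A17fl/fl + NS or + DOX and A17α-MHCKO + NS or + DOX, 4 groups with 3 mice and 3 libraries each. Controls without floxed alleles and mice with Cre alone were not analysed here.

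Immediate-early genes are transcribed within minutes of a growth factor, stretch, calcium or stress signal, from factors already present in the cell, and their mRNAs are mostly short-lived. FOS, FOSB and FOSL2 pair with JUN, JUNB or JUND through leucine zippers to form AP-1, which binds DNA and regulates later genes. EGR1 is a zinc finger factor, ATF3 a stress-induced bZIP protein, NR4A1 an orphan nuclear receptor, and ARC a capsid-like protein best known at synapses. In the heart these genes are known to respond to pressure load, adrenergic drive and ischemia, and also to the handling of tissue before it is frozen.

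Promoter sequence was matched by symbol in RefSeq (GRCm38.p6) for 8 members, and none was printed for Egr1 and Arc. The 250 bases before each start were searched on both strands for TGACGT (the core of a cAMP response element), TGANTCA (the AP-1 site), TGACNTCA (a longer AP-1 or ATF site, which also holds TGACGT where N is G) and the CArG box of serum response factor, and on the sense strand for TATAAA. The 3 windows below are shown because they were the ones with a match, Fosl2 because its mRNA was higher in all 3 saline-injected A17fl/fl hearts than in the other 9, and Junb because it was far higher in 1 of them. Each line gives the 150 bases before the start, 5′ to 3′ on the gene's strand, with matches in capitals.
Fos (chr12:85473740-85473889, plus strand): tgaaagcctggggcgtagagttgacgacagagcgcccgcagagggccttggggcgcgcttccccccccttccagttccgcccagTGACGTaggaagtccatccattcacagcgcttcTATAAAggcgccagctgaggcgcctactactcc
Jun (chr4:95052223-95052372, minus strand): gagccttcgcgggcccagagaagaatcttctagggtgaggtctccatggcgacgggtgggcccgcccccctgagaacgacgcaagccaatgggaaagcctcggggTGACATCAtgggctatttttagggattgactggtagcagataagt
Atf3 (chr1:191183334-191183483, minus strand): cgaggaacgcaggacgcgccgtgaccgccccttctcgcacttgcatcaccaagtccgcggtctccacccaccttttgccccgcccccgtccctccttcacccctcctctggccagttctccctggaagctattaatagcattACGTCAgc
Fosl2 (chr5:32136322-32136471, plus strand): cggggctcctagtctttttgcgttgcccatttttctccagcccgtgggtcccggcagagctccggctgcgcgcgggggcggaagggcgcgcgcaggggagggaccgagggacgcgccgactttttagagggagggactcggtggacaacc
Junb (chr8:84978749-84978898, minus strand): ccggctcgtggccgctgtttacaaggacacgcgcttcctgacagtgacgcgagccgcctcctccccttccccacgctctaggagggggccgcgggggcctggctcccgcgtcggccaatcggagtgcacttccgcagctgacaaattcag
TGACGT was present for Fos and Atf3, 2 of 8 members, against 6.56% of 27025 promoters. TGACNTCA was present for Jun alone, against 7.59%, and TATAAA for Fos alone, against 8.12%. TGANTCA and the CArG box were in none of the 8 windows, against 6.87% and 1.4% of all promoters. A match describes the letters in this window only.

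Total counts were 15950717 to 21725076 per library, so that 1 CPM (counts scaled to a common library size with TMM factors) stood for 15.4 to 23.2 counts. Adam17 was at 43.6 to 70.9 CPM in the 6 A17fl/fl libraries and at 27.9 to 36.8 CPM in the 6 A17α-MHCKO libraries, with no overlap between the genotypes. One library stood apart before any result: A17fl/fl + NS replicate 1 had a mean Pearson r of 0.900 with the other libraries over log2 CPM of all tested genes, against 0.948 to 0.966 for the rest. Its 8 neutrophil markers summed to 2504 CPM, against 9.94 to 70.1 in the other 11 libraries, its 6 fibroblast markers to 8484 CPM, against 1201 to 2642, and its 8 cardiomyocyte markers to 16605 CPM, against 25715 to 43238. The sum of the 6 macrophage markers was 720 CPM there, against 284 to 389, and that of the 5 red cell markers 3621 CPM, against 518 to 1934. The sum of the 4 atrial markers was 1021 CPM there and 332 CPM in A17fl/fl + NS replicate 3, against 1676 to 8048 CPM in the other 10. Of these markers, 2 were at 0 in replicate 1, so the others made up its sum. Myl7 was at 0 CPM in replicate 1 and 0.0626 CPM in replicate 3, against 125 to 1019 CPM in the other 10. This 1 atrial transcript was thus near 0 in 2 libraries. In bulk tissue, fewer cells of a type and less RNA per cell cannot be told apart, and the part of any of these in the values below was not tested. Results that rest on that library are given with and without it.

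Scaled by gene length, the members covered a wide range. Jund, the AP-1 subunit usually present without stimulation, had the highest median over the 12 libraries, 136 FPKM (fragments scaled by gene length and library total; range 113 to 170). Jun followed at 26.5 FPKM (21.2 to 44.9), Junb at 17.7 FPKM (9.50 to 171) and Nr4a1 at 8.82 FPKM (4.88 to 22.6). Atf3 at 3.97 FPKM (1.93 to 21.98), Egr1 at 3.56 FPKM (1.43 to 10.1) and Fosl2 at 3.05 FPKM (2.28 to 17.9) lay close together. Atf3 exceeded Egr1 in 7 of 12 libraries and Egr1 exceeded Fosl2 in 4 of 12, so the order of these 3 was not fixed. Fos was at 1.92 FPKM (0.997 to 10.2), below Fosl2 in 11 of 12 libraries. Arc at 0.307 FPKM (0.139 to 2.17) and Fosb at 0.102 FPKM (0.0429 to 0.361) were lowest, and Fosb rested on 12 to 98 counts per library. The order between genes depends on the gene lengths used, which are not stated in the sources used here. In CPM, Fosb and Arc were close, with medians of 1.69 and 1.57 over the 11 libraries without A17fl/fl + NS replicate 1. By the same measure Egr1 was at 24.9 CPM and Atf3 at 10.5 CPM.

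**Figure D1:**
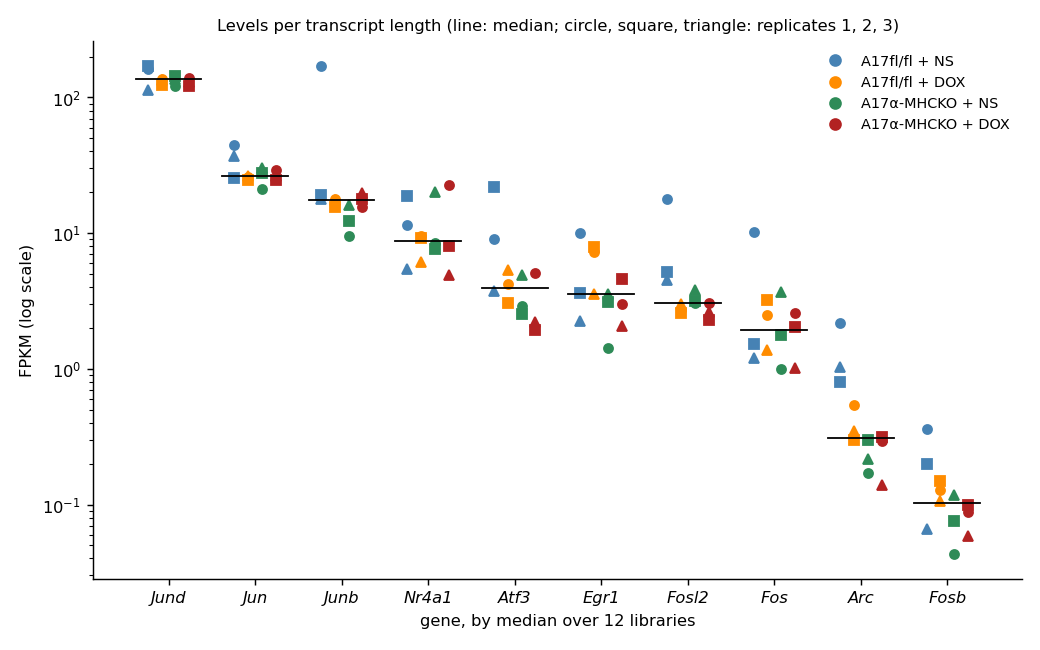
FPKM on a log axis for the 10 members in 12 libraries, ordered by the median (line), with colors for groups and symbols for replicates. Jund sits above 112 FPKM in every library, while Junb reaches 171 FPKM in A17fl/fl + NS replicate 1 and at most 19.7 FPKM in the other 11.

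Among the genes of the FOS proteins, Fosl2 (FRA-2) had the highest FPKM in 11 of 12 hearts. In A17fl/fl + NS it was at 197, 60.0 and 57.7 CPM. In A17fl/fl + DOX it was at 31.4, 29.9 and 34.5 CPM, in A17α-MHCKO + NS at 36.9, 34.3 and 41.4 CPM, and in A17α-MHCKO + DOX at 36.6, 27.5 and 30.6 CPM. All 3 saline A17fl/fl hearts were above all 9 other hearts, and the 9 others overlapped one another. Between doxorubicin and saline the log2 change was -1.71 ± 0.39 (SE) in A17fl/fl and -0.25 ± 0.39 in A17α-MHCKO, and without A17fl/fl + NS replicate 1 the former was -0.88 ± 0.14.

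Fos, the classical immediate-early AP-1 subunit, was at 36.7, 5.80 and 5.01 CPM in A17fl/fl + NS and at 9.43, 12.1 and 5.22 CPM in A17fl/fl + DOX. In A17α-MHCKO it was at 3.95, 6.35 and 13.0 CPM after saline and at 10.1, 8.06 and 3.89 CPM after doxorubicin. Only 1 saline heart was high, and all 4 groups otherwise overlapped. The log2 change with doxorubicin in A17fl/fl was -0.83 ± 0.72 with that heart and 0.72 ± 0.52 without it, so its sign turned on 1 library. In A17α-MHCKO it was -0.08 ± 0.73.

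Fosb, whose protein and its truncated form also join AP-1, was at 5.66, 3.29 and 1.19 CPM in A17fl/fl + NS, at 2.14, 2.46 and 1.74 CPM in A17fl/fl + DOX, at 0.741, 1.17 and 1.80 CPM in A17α-MHCKO + NS, and at 1.51, 1.69 and 0.972 CPM in A17α-MHCKO + DOX. After doxorubicin the 3 A17α-MHCKO hearts were below the 3 A17fl/fl hearts, but the gap between 1.69 and 1.74 CPM was small. With doxorubicin the log2 change was -0.68 ± 0.49 in A17fl/fl, or -0.09 ± 0.46 without replicate 1 of A17fl/fl + NS, and 0.17 ± 0.52 in A17α-MHCKO.

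The FOS family was compared in amount and in makeup. The summed FPKM of Fos, Fosb, Fosl1 and Fosl2 was 38.4 in A17fl/fl + NS replicate 1 and 4.77 to 8.70 in the other 11 libraries. Fosl2 made up 46.5% of that sum in replicate 1 and 37.5% to 68.3% elsewhere, while Fos made up 26.6%, within its range of 18.2% to 46.2%. In A17fl/fl + NS replicates 2 and 3 Fosl2 held 67.1% and 68.3% of the sum, the highest shares of the 12, against 37.5% to 49.7% in the 3 A17fl/fl + DOX hearts, while their sums were close, 7.71 and 6.65 FPKM against 6.02 to 6.90. By FPKM, replicate 1 thus differed mainly in amount, and replicates 2 and 3 in makeup. These sums and shares depend on the gene lengths used.

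Among the JUN genes, Junb, which encodes a subunit that often dampens JUN activity, varied most. It was at 373, 43.9 and 45.1 CPM in A17fl/fl + NS and at 41.2, 35.9 and 40.4 CPM in A17fl/fl + DOX. In A17α-MHCKO it was at 22.8, 26.4 and 34.6 CPM after saline and at 37.2, 42.2 and 45.9 CPM after doxorubicin. The 3 A17α-MHCKO + NS hearts were the lowest of the 12, a pattern picked out after the values were seen and shared by 0.764% of tested genes, and Junb was the only member with it. Doxorubicin thus went with lower Junb in A17fl/fl and higher Junb in A17α-MHCKO, with no overlap in either genotype. Of all tested genes, 6.11% were lower without overlap in A17fl/fl and 9.16% higher without overlap in A17α-MHCKO. The log2 change of Junb was -1.98 ± 0.67 in A17fl/fl and 0.58 ± 0.65 in A17α-MHCKO. Leaving out replicate 1 of A17fl/fl + NS, these were -0.19 ± 0.17 and 0.58 ± 0.15.

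Jun was at 136, 80.5 and 129 CPM in A17fl/fl + NS, at 83.3, 78.3 and 84.1 CPM in A17fl/fl + DOX, at 70.7, 82.9 and 89.5 CPM in A17α-MHCKO + NS, and at 96.1, 82.0 and 85.1 CPM in A17α-MHCKO + DOX. Replicates 1 and 3 of the saline A17fl/fl hearts were above all others, and replicate 2 lay among them. On the log2 scale Jun differed with doxorubicin by -0.49 ± 0.18 in A17fl/fl, or -0.36 ± 0.18 without replicate 1, and 0.11 ± 0.18 in A17α-MHCKO.

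Jund was the steadiest member. Its 12 values lay between 206 and 282 CPM, and its spread within groups, 0.14 on the log2 scale, was smaller than that of all but 8.09% of tested genes. Its log2 change with doxorubicin was -0.18 ± 0.14 in A17fl/fl and 0.04 ± 0.14 in A17α-MHCKO. Jund held 67.3% to 79.7% of the summed FPKM of the 3 JUN genes in 11 libraries but 43.0% in A17fl/fl + NS replicate 1, where Junb held 45.2%, against 6.26% to 11.2% elsewhere.

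**Figure D2:**
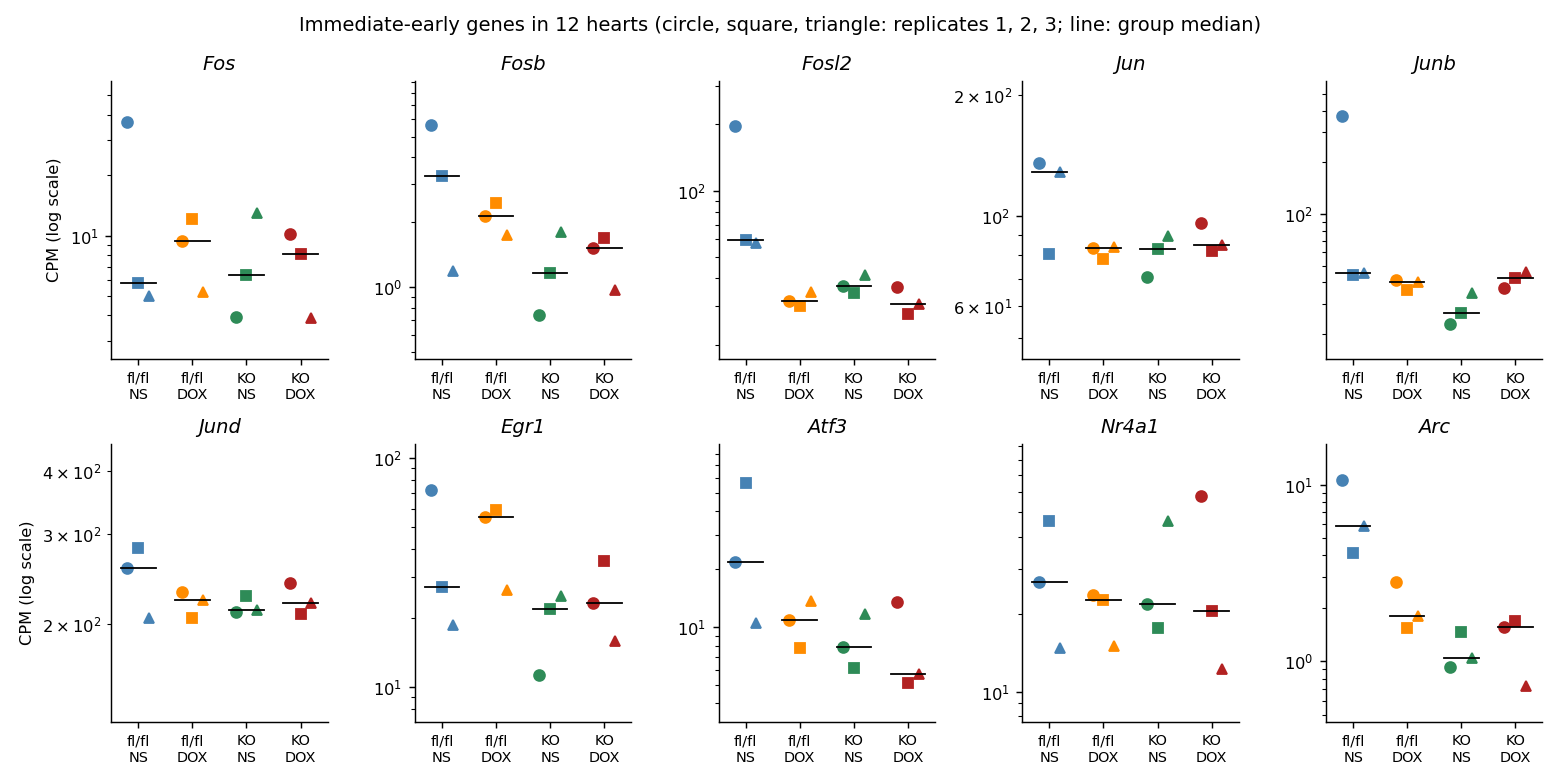
CPM on a log axis for each member in the 4 groups, with 3 libraries per group and the group median as a line. Fosl2 and Arc are higher in all 3 A17fl/fl + NS libraries than in the other 9, whereas Fos and Junb are high in replicate 1 of that group alone.

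Egr1, a target of serum response factor and of ERK signaling, showed another order of groups. It was at 72.0, 27.3 and 18.5 CPM in A17fl/fl + NS and at 55.2, 59.0 and 26.5 CPM in A17fl/fl + DOX. In A17α-MHCKO it was at 11.2, 21.9 and 24.9 CPM after saline and at 23.2, 35.6 and 15.8 CPM after doxorubicin. Only A17fl/fl + NS replicate 1 was higher than replicates 1 and 2 of A17fl/fl + DOX, and replicate 3 of that group lay among the rest. The log2 change with doxorubicin in A17fl/fl was 0.26 ± 0.50, and 1.03 ± 0.43 without replicate 1, and in A17α-MHCKO it was 0.36 ± 0.51. The genotype difference after doxorubicin (A17α-MHCKO minus A17fl/fl) was -0.92 ± 0.51.

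Atf3, a factor induced by the integrated stress response and by DNA damage, was at 21.8, 56.2 and 10.5 CPM in A17fl/fl + NS, at 10.8, 7.76 and 13.7 CPM in A17fl/fl + DOX, at 7.84, 6.13 and 11.7 CPM in A17α-MHCKO + NS, and at 13.5, 5.13 and 5.71 CPM in A17α-MHCKO + DOX. Here replicate 2, not replicate 1, of A17fl/fl + NS was highest, and replicate 3 lay among the doxorubicin-injected hearts. Its log2 change with doxorubicin was -1.46 ± 0.56 in A17fl/fl, -1.63 ± 0.58 without replicate 1, and -0.07 ± 0.56 in A17α-MHCKO. Leaving out replicate 1 kept the highest heart, replicate 2, in the comparison.

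Nr4a1 (NUR77) was at 26.8, 46.3 and 14.8 CPM in A17fl/fl + NS, at 23.8, 22.7 and 15.1 CPM in A17fl/fl + DOX, at 21.9, 17.7 and 46.1 CPM in A17α-MHCKO + NS, and at 57.7, 20.7 and 12.2 CPM in A17α-MHCKO + DOX. One heart in each of 3 groups exceeded 46 CPM, and all groups overlapped. For Nr4a1 the log2 change with doxorubicin was -0.51 ± 0.57 in A17fl/fl, or -0.58 ± 0.63 without replicate 1 of A17fl/fl + NS, and 0.08 ± 0.57 in A17α-MHCKO.

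Arc was at 10.7, 4.13 and 5.83 CPM in A17fl/fl + NS, at 2.83, 1.54 and 1.80 CPM in A17fl/fl + DOX, at 0.926, 1.47 and 1.05 CPM in A17α-MHCKO + NS, and at 1.57, 1.69 and 0.729 CPM in A17α-MHCKO + DOX. As with Fosl2, all 3 saline A17fl/fl hearts were above the other 9, and at these low levels the values rested on 12 to 185 counts. The log2 change with doxorubicin was -1.74 ± 0.42 in A17fl/fl, -1.28 ± 0.38 without replicate 1, and 0.20 ± 0.44 in A17α-MHCKO. The genotype difference after saline was -2.57 ± 0.44.

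**Figure D3:**
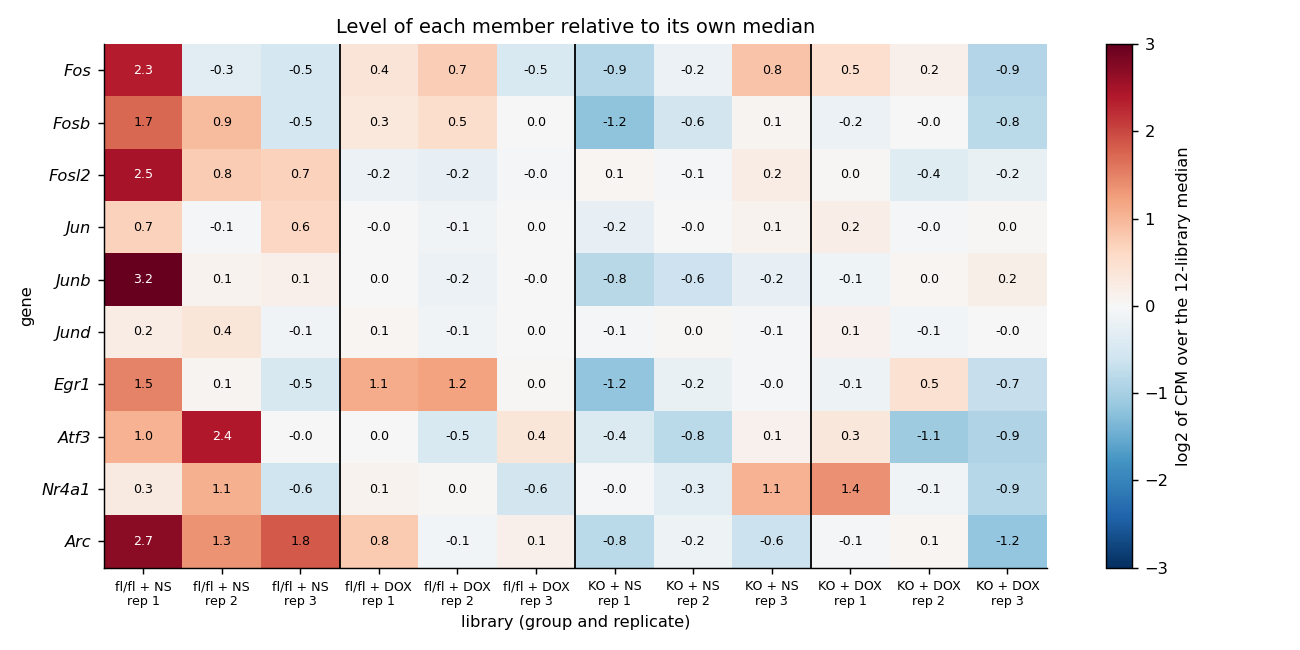
Log2 of each member's CPM over its own 12-library median, by library, with black lines between groups. A17fl/fl + NS replicate 1 reaches 2.35 for Fos and 3.19 for Junb, while replicates 2 and 3 of that group stay raised together for Fosl2 and Arc.

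The saline A17fl/fl hearts were high in 2 ways. Replicate 1 was the highest of 12 libraries for 7 of 10 members (Arc, Egr1, Fos, Fosb, Fosl2, Jun and Junb), while it was the highest for 26.1% of all tested genes. Its level over the median of the other 11 was 9.24-fold for Junb, 6.79-fold for Arc, 5.78-fold for Fos, 5.70-fold for Fosl2 and 1.17-fold for Jund. All 3 hearts of the group were above the 9 others for 2 of 10 members, Arc and Fosl2, and for 1.28% of tested genes. Replicates 2 and 3 on their own were above those 9 for the same 2 members and for 4.07% of tested genes.

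Hspa1b and Hspa1a, near-identical inducible HSP70 genes whose fragments can be split between them, also respond quickly to stress and handling. Hspa1b was at 17.4, 36.4 and 18.9 CPM in A17fl/fl + NS and at 5.66 to 12.2 CPM in the other 9 hearts. Hspa1a was at 7.21, 19.7 and 15.9 CPM in A17fl/fl + NS and at 4.31 to 7.60 CPM in the others, so replicate 1 lay within them. Among these heat shock genes replicate 2, not replicate 1, was highest, and whether tissue handling took part in the member values was not tested.

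Across contrasts, the members were set beside all tested genes. With doxorubicin in A17fl/fl the log2 change was below 0 for 9 of 10 members, with a median of -0.75 (all tested genes, -0.04). In A17α-MHCKO it was above 0 for 7 of 10, with a median of 0.10 (all tested genes, 0.00). After saline, A17α-MHCKO was below A17fl/fl for 10 of 10 members, with a median of -1.24 (all tested genes, -0.03), and after doxorubicin for 6 of 10, with a median of -0.15 (all tested genes, 0.01). The difference of the 2 doxorubicin effects (A17α-MHCKO minus A17fl/fl) was above 0 for 10 of 10, with a median of 0.80 (all tested genes, 0.06). The contrasts share groups, and the same 3 saline A17fl/fl hearts enter 3 of them. The medians without A17fl/fl + NS replicate 1 were -0.27 for doxorubicin in A17fl/fl, -0.51 for the genotypes after saline and 0.55 for the difference of effects. With doxorubicin in A17fl/fl, Fos then turned sign, so that 8 of 10 members were below 0. In the difference, Fos (-0.79) and Egr1 (-0.67) turned sign, which left 8 of 10 above 0. Between the genotypes after saline, Fos turned sign, with 9 of 10 below 0.

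By the limits of the study's methods (absolute log2 change over 1, unadjusted p under 0.05 in edgeR and mean FPKM over 1 in a compared group), 4 members (Arc, Atf3, Fosl2 and Junb) were lower with doxorubicin in A17fl/fl, where 2.82% of tested genes passed in either direction. The same 4 were lower in A17α-MHCKO than in A17fl/fl after saline, where 2.99% passed. Fosb was past the fold and p limits there (log2 change -1.45, unadjusted p = 0.0151 in edgeR). It was removed by the FPKM limit, with a mean of 0.209 FPKM in A17fl/fl + NS. In the difference of the doxorubicin effects 3 members (Arc, Fosl2 and Junb) passed, all above 0, against 2.13% of tested genes. No member passed with doxorubicin in A17α-MHCKO (0.658% of genes) or between the genotypes after doxorubicin (0.205%). Without A17fl/fl + NS replicate 1, the members that passed were Atf3 (lower) and Egr1 (higher) with doxorubicin in A17fl/fl (1.24% of genes), Atf3 between the genotypes after saline (1.55%), and 0 in the difference (1.71%). Arc was removed by the FPKM limit alone, since its mean in A17fl/fl + NS went from 1.33 to 0.909 FPKM while its log2 changes of -1.28, -2.10 and 1.47 stayed past the fold and p limits. Fosl2 and Junb were under the fold limit. With DESeq2 in place of edgeR, Junb passed in none of these 3 contrasts, Egr1 joined Arc, Atf3 and Fosl2 between the genotypes after saline, and the shares of all genes were 2.52%, 2.63% and 2.19%. Atf3 no longer passed with doxorubicin in A17fl/fl without A17fl/fl + NS replicate 2 (987 of 16445 tested genes passed). The same held without A17fl/fl + DOX replicate 1 (374 of 16501) or replicate 2 (315 of 16517). Without A17fl/fl + NS replicate 2 it also no longer passed between the genotypes after saline, where Egr1 did (1066 of 16445). Without A17fl/fl + DOX replicate 3 Egr1 passed between the genotypes after doxorubicin (45 of 16504). These counts come from the contrasts that chose the members, so nothing is read from them.

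At an adjusted p under 0.05 in edgeR's quasi-likelihood test, 0 of 10 members passed in any of the 5 contrasts, against 0% of tested genes with doxorubicin in A17fl/fl, 0% in A17α-MHCKO, 0.0186% between the genotypes after saline, 0.00621% after doxorubicin and 0% in the difference. At an unadjusted p under 0.05 the numbers of members were 5, 0, 6, 0 and 4 in the same order, against 10.7%, 6.42%, 10.1%, 2.7% and 5.99% of tested genes. DESeq2 passed 2 members, Arc and Fosl2, in the first and the third of these contrasts, where it passed 0.938% and 1.08% of tested genes, and 0 in the others (0.255%, 0.0186% and 0.13%). Without A17fl/fl + NS replicate 2, edgeR passed 3 members (Arc, Fosl2 and Jun) with doxorubicin in A17fl/fl and 4 (the same 3 and Junb) between the genotypes after saline, where 2.38% and 4.09% of tested genes passed. These contrasts chose the members, so nothing is read from the calls.

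Groups did not overlap for 3 members lower with doxorubicin in A17fl/fl (Arc, Fosl2 and Junb; 6.11% of tested genes) and for 1 higher in A17α-MHCKO (Junb; 9.16%). They did not overlap for 3 members lower in A17α-MHCKO after saline (Arc, Fosl2 and Junb; 5.34%) and 1 after doxorubicin (Fosb; 7.13%).

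**Figure D4:**
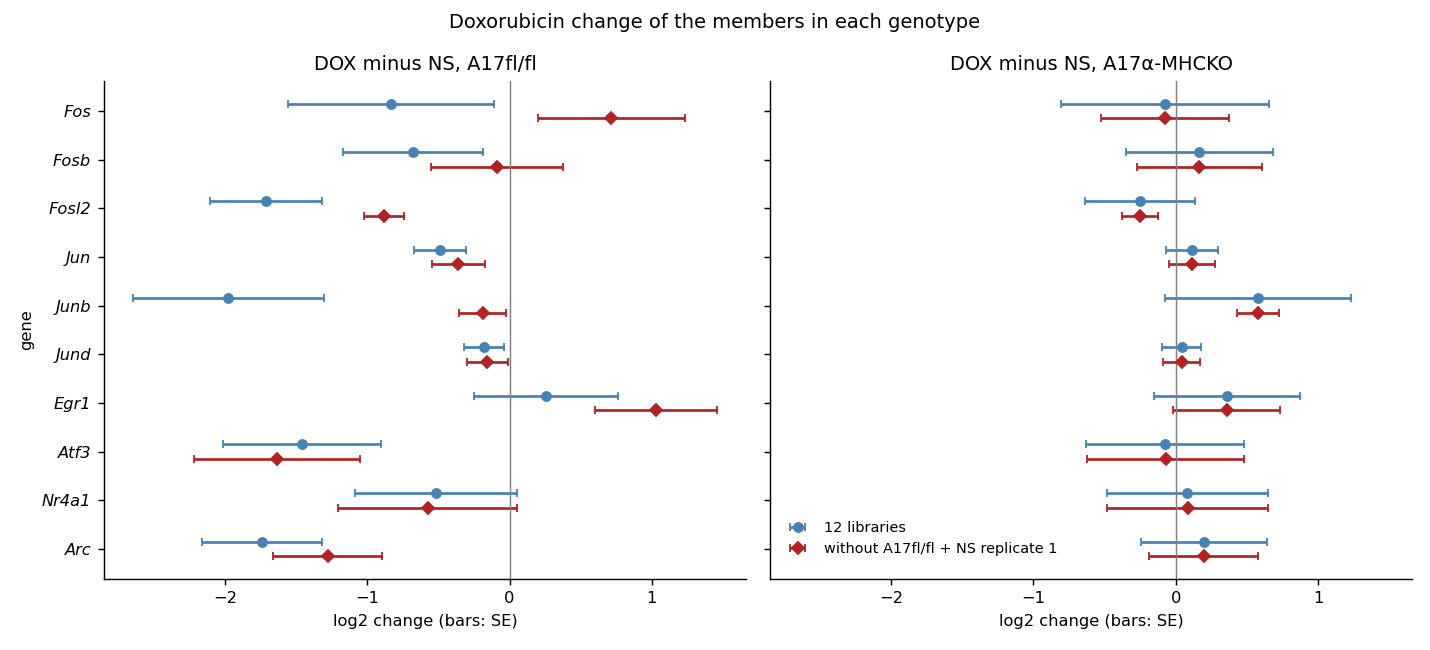
Log2 change between doxorubicin and saline for each member in A17fl/fl (left) and A17α-MHCKO (right), with all 12 libraries (circles) and without A17fl/fl + NS replicate 1 (diamonds); bars are SE. In A17fl/fl, Junb moves from -1.98 to -0.19 and Fos from -0.83 to 0.72, while Atf3 and Arc stay below -1. For Atf3 the highest saline heart, A17fl/fl + NS replicate 2, is kept in both.

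The members also differed in how much mice of the same group varied. The within-group SD of log2 CPM was 1.01 for Fos, 0.90 for Junb, 0.81 for Nr4a1, 0.77 for Atf3 and 0.73 for Egr1, against a median of 0.31 over all tested genes. Over the other 11 libraries the SD was 0.19 for Junb and 0.14 for Fosl2, against a median of 0.24, but still 0.86 for Nr4a1, 0.83 for Atf3, 0.68 for Fos and 0.58 for Egr1. Fosl2 and Junb were thus spread mainly by 1 heart, and Nr4a1, Atf3, Fos and Egr1 by several.

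As a description over libraries that share group means, the 45 pairs of members had a median Pearson r of 0.53 over 12 libraries, and 27 pairs were above 0.5. Over the 11 libraries without A17fl/fl + NS replicate 1 the median was 0.31 and 14 pairs were above 0.5. The closest of those 11-library pairs were Jund with Atf3 at 0.82, Fosb with Egr1 at 0.78 and Fosl2 with Atf3 at 0.74, and the lowest was Fosl2 with Egr1 at -0.33.

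Outside the members, the 8 tested genes whose log2 CPM followed the members' mean standardized level most closely over 12 libraries were Gfpt2 (r = 0.96), Trf (0.94), Mmp9 (0.92), Plekha3 (0.92), Lysmd3 (0.91), Nsf (0.91), Prkar1b (0.91) and Nfe2l2 (0.90). Gfpt2, an enzyme that feeds the hexosamine pathway, was at 85.5, 50.1 and 37.3 CPM in A17fl/fl + NS and at 25.7 to 39.1 CPM in the other 9 hearts. Mmp9, a gelatinase abundant in neutrophils, was at 179 CPM in A17fl/fl + NS replicate 1 and at 1.40 to 6.52 CPM in the rest. Over 11 libraries 2 of these 8, Gfpt2 (0.91) and Trf (0.85), were again among the top 8, with Dbndd1 (0.94), Gm8775 (0.90), Tmem177 (0.90), 4930522L14Rik (0.86), Nnat (0.85) and Ldah (0.85).

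Lists of related genes, 4 in all, were set beside the members, and 67 of their 69 genes were tested (Egr4 and Npas4 fell below the count filter). At an adjusted p under 0.05, 0 of 67 passed in any of the 5 contrasts in edgeR. DESeq2 passed 2 with doxorubicin in A17fl/fl (Gadd45g and Mafk; 0.938% of all tested genes). It passed 2 between the genotypes after saline (Ier3 and Mafk; 1.08%) and 0 elsewhere. Without A17fl/fl + NS replicate 2, edgeR passed 4 (Btg2, Ier3, Mafk and Rgs2) and 6 (the same 4, Myc and Ptgs2) in those contrasts, all below 0 except Rgs2. Of all tested genes, 2.38% and 4.09% then passed. Other immediate-early genes (28 genes, 26 tested) were mostly below 0 with doxorubicin in A17fl/fl. The log2 change was negative for 23 and positive for 3, with a median of -0.73 (all tested genes, -0.04). Of these genes 13 of 26 had an unadjusted p under 0.05 (10.7% of all tested genes), all lower, and the smallest adjusted p was 0.334. The library A17fl/fl + NS replicate 1 was the highest of 12 for 18 of the 26, against 26.1% of all tested genes. Without it the median was -0.34. In A17α-MHCKO 11 were above 0 and 15 below, with a median of -0.06 and 0 of 26 at an unadjusted p under 0.05 (6.42% of all tested genes).

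Named genes of that list had the smallest p in one or the other genotype. Btg2, an antiproliferative gene, was at 123, 55.1 and 79.9 CPM in A17fl/fl + NS and at 52.1, 45.9 and 40.1 CPM in A17fl/fl + DOX, a log2 change of -0.90 ± 0.24 (edgeR adjusted p = 0.334). Gadd45g, a growth arrest and stress gene, had a log2 change of -1.42 ± 0.39 in A17fl/fl (adjusted p = 0.334), or -0.71 without replicate 1, and -0.60 ± 0.38 in A17α-MHCKO (adjusted p = 0.833). Sik1, a salt-inducible kinase that is a CREB target, was at 64.2, 60.6 and 49.3 CPM in A17fl/fl + NS and at 32.1, 29.7 and 19.6 CPM in A17fl/fl + DOX, a change of -1.10 ± 0.32 (adjusted p = 0.358) that was -1.02 without replicate 1. In A17α-MHCKO the smallest p belonged to Ier5 (0.52 ± 0.27, adjusted p = 0.807) and Ccn2, the gene of connective tissue growth factor (-0.62 ± 0.37, adjusted p = 0.824).

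Among 11 bZIP partners, 8 were below 0 with doxorubicin in A17fl/fl. In edgeR 5 of them and 1 of the 3 above 0 had an unadjusted p under 0.05 (10.7% of all tested genes). The median was -0.44 (all tested genes, -0.04), or -0.22 without A17fl/fl + NS replicate 1. That library was the highest for 6 of the 11, against 26.1% of all tested genes. Mafk, a small MAF protein, was at 80.7, 71.2 and 91.9 CPM in A17fl/fl + NS and at 51.2, 45.8 and 50.3 CPM in A17fl/fl + DOX, a log2 change of -0.73 ± 0.15 (edgeR adjusted p = 0.299). Without replicate 1 it was -0.74. The other small MAF gene of the 3 with the smallest p, Mafg, changed by -0.48 ± 0.15 (adjusted p = 0.358). Batf2, an interferon-linked bZIP gene, went the other way, from 0.635, 1.14 and 0.689 CPM to 1.82, 3.26 and 1.93 CPM, a change of 1.50 ± 0.38 (adjusted p = 0.334). In A17α-MHCKO the 3 with the smallest p were Maf (-0.31 ± 0.13), Batf2 (0.71 ± 0.38) and Batf3 (-0.44 ± 0.33), with adjusted p of 0.767, 0.807 and 0.857.

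The 8 MAP kinase phosphatases, feedback inhibitors that are themselves induced by MAP kinase signaling, had a median of -0.25 with doxorubicin in A17fl/fl and -0.05 without replicate 1. In edgeR 0 of 8 had an unadjusted p under 0.05 (10.7% of all tested genes). Dusp2 (-1.31 ± 0.62, adjusted p = 0.477), Dusp16 (-0.31 ± 0.16, 0.504) and Dusp4 (-0.80 ± 0.48, 0.567) had the smallest p. In A17α-MHCKO these were Dusp10 (0.41 ± 0.23, adjusted p = 0.813), Dusp2 (-0.82 ± 0.62, 0.858) and Dusp1 (-0.30 ± 0.31, 0.899).

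The 22 upstream factors and kinases, which act on immediate-early promoters mainly through phosphorylation, had medians of 0.03 and -0.03 in the 2 genotypes. Elk1, a ternary complex factor, changed by 0.46 ± 0.17 in A17fl/fl (edgeR adjusted p = 0.414), Mef2c by 0.63 ± 0.32 (0.499) and Creb1 by -0.26 ± 0.17 (0.583). In A17α-MHCKO, Atf1 changed by 0.33 ± 0.14 (adjusted p = 0.761), Mrtfa by -0.38 ± 0.20 (0.807) and Srf by -0.24 ± 0.14 (0.824).

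**Figure D5:**
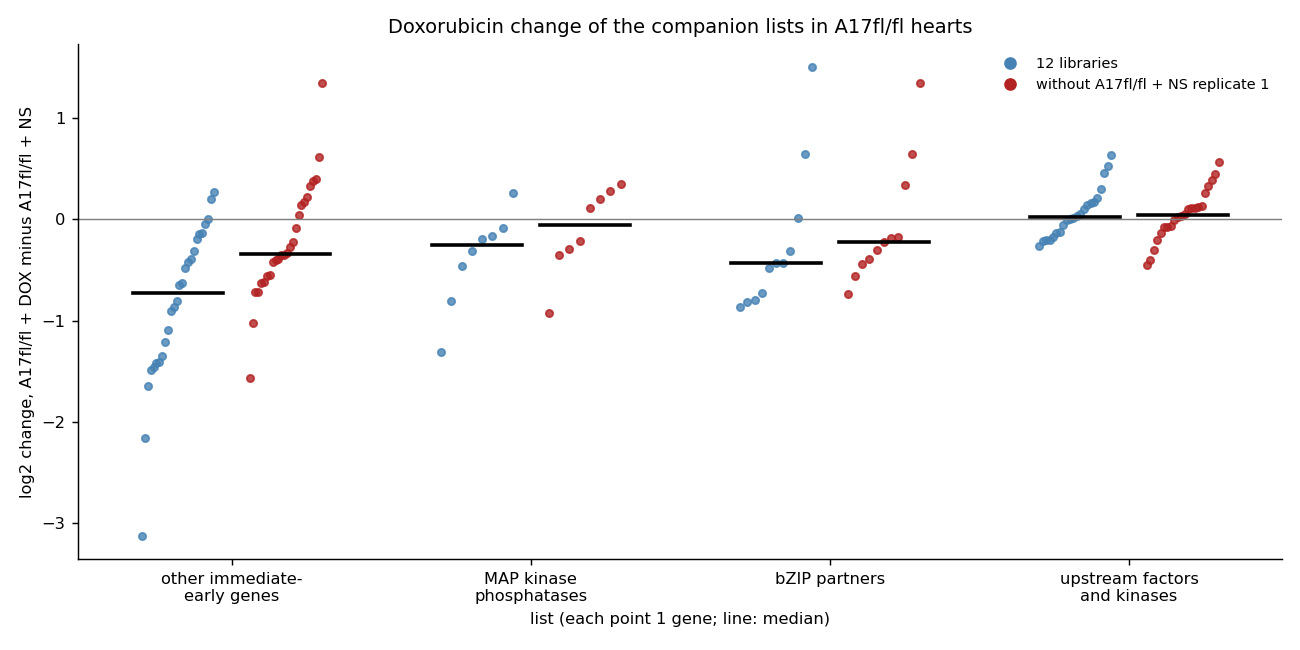
Log2 change with doxorubicin in A17fl/fl hearts for each tested gene of the 4 lists, with all 12 libraries (blue) and without A17fl/fl + NS replicate 1 (red); lines are medians. The median of the other immediate-early genes moves from -0.73 to -0.34, while that of the upstream factors and kinases stays near 0.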

How the data were processed

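RNA of 12 mouse hearts was sequenced, 1 library per mouse and 3 mice in each of 4 groups. By the methods, stranded paired-end mRNA libraries were counted with StringTie and tested with edgeR after TMM scaling. The submitters' processing notes name CASAVA 1.8, HISAT2, SAMtools 1.3.1, edgeR and GRCm39. The annotation release and strand setting are not given in the sources used here, so overlapping, antisense or near-identical genes may share fragments. The authors deposited a table of 53465 genes with raw counts per gene and library. The deposited FPKM are those counts scaled by gene length and library total, without a TMM factor. No other column was present.

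Tests on counts used edgeR 4.0.16 under R 4.3.3 (filterByExpr, TMM, quasi-likelihood fit of 1 mean per group, Benjamini-Hochberg adjustment over 16101 genes). DESeq2 1.42.0 was the alternative tool. SE is the absolute log2 change over the square root of F and is approximate. Log2 CPM used a prior count of 2. The fit was tested on simulated counts. The labels give 1 mouse per library, and p-values measure the spread between these mice. The common dispersion was 0.0842, so the spread between mice exceeded counting error for most genes at these depths.

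The members and all gene lists were chosen with earlier results of these data known. Named were all members, the 3 genes with the smallest p of each list in each genotype under doxorubicin, every gene past an adjusted p of 0.05, and the 8 genes most like the members in Pearson r. Promoters came from RefSeq tables on GRCm38.p6, another build than the files, and were matched by symbol only. Alternatives were DESeq2, RLE and upper-quartile factors, no filter, 10 counts in every library, a replicate block, 2 groups alone, each library left out, Spearman correlation and TPM.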

Additional observations from a re-analysis of the deposited data

Results flagged for a closer look

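Junb is listed here because its values lay in opposite directions with doxorubicin in the 2 genotypes, without overlap. All 3 A17fl/fl + DOX hearts (35.9 to 41.2 CPM) were below all 3 A17fl/fl + NS hearts (43.9 to 373 CPM), and all 3 A17α-MHCKO + DOX hearts (37.2 to 45.9 CPM) were above all 3 A17α-MHCKO + NS hearts (22.8 to 34.6 CPM). The difference of the 2 effects, A17α-MHCKO minus A17fl/fl, was 2.55 ± 0.93 (SE) on the log2 scale, with an adjusted p of 0.828 in edgeR's quasi-likelihood test. Junb belongs to the genes chosen on this contrast, so the value is a description. Without A17fl/fl + NS replicate 1 the difference was 0.77 ± 0.22 (adjusted p = 0.517), a smaller value of the same sign. The doxorubicin change of Junb was -1.98 ± 0.67 in A17fl/fl and 0.58 ± 0.65 in A17α-MHCKO. Without that library the changes were -0.19 ± 0.17 and 0.58 ± 0.15, so the fall in A17fl/fl was then close to its SE. Of all tested genes, 6.11% were lower without overlap in A17fl/fl and 9.16% higher without overlap in A17α-MHCKO.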

How the results depend on the processing

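With DESeq2 in place of edgeR, members past an adjusted p of 0.05 rose from 0 to 2 with doxorubicin in A17fl/fl. They also rose from 0 to 2 between the genotypes after saline, and companion genes rose from 0 to 2 in each of these contrasts. Of all tested genes, 0.938% and 1.08% passed in DESeq2, against 0% and 0.0186% in edgeR. Leaving out 1 library at a time gave 0 to 3 and 0 to 4 such members, and 0 to 4 and 0 to 6 companion genes, in the same contrasts. The highest numbers came without A17fl/fl + NS replicate 2, where 2.38% and 4.09% of all tested genes passed. By the limits of the methods, members numbered 2 to 4 with doxorubicin in A17fl/fl, 1 to 5 between the genotypes after saline, 0 to 1 after doxorubicin and 0 to 4 in the difference of effects. The lowest came without A17fl/fl + NS replicate 1 except after doxorubicin, where the 1 came without A17fl/fl + DOX replicate 3 (45 of 16504 tested genes passed). All tested genes past these limits numbered 204 to 987, 254 to 1066, 22 to 64 and 226 to 963 in the same order. The genes tested numbered 13695 to 30451. The median member change between the genotypes after saline ranged from -1.61 to -0.51, the latter without A17fl/fl + NS replicate 1. The cause of these shifts was not tested. Other factors, filters and 2 groups alone gave 0 members past an adjusted p, as with all 12 libraries. Of the 8 genes most like the members, 2 were shared with the 8 over 11 libraries and 2 with the 8 by Spearman correlation. TPM kept the order of all 10 members. It rescales the FPKM of each library by 1 total and keeps the gene lengths, so nothing is read from this.

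Same-numbered libraries had correlations of their deviations between -0.104 and 0.219, and the labels give no pairing, so the numbers were not taken as pairs. With a replicate block the median member change with doxorubicin in A17fl/fl was -0.57, and 3 members passed the limits there (4 without the block). Of 16101 tested genes, 281 passed those limits with the block and 454 without it. With the block, 0 members and 0 companion genes passed an adjusted p in the 5 contrasts.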

Other observations

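Other heat shock genes moved as Hspa1b did in part. Dnajb1, an HSP40 partner of HSP70, was at 35.4, 33.1 and 32.3 CPM in A17fl/fl + NS and at 23.9, 18.4 and 21.6 CPM in A17fl/fl + DOX (edgeR adjusted p = 0.324). In A17α-MHCKO it was at 23.6, 28.1 and 24.6 CPM after saline and at 28.3, 20.3 and 21.4 CPM after doxorubicin. Hsph1 was highest in A17fl/fl + NS replicate 2 at 55.0 CPM, and lowest in A17α-MHCKO + DOX replicate 3 at 21.0 CPM.

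The sum of 4 adipocyte markers ran from 0.564 to 82.8 CPM in A17fl/fl + NS and from 16.5 to 76.4 CPM in A17fl/fl + DOX. The sum of 5 endothelial markers, by contrast, lay between 783 and 1193 CPM in all 12 libraries, with 1076 CPM in A17fl/fl + NS replicate 1.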
